A study of Mus musculus with 12 samples.

Results

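Chaperones and the sensors of the unfolded protein response were followed in regulatory T cells (Tregs) that had or had lost CD25, a subunit of the receptor for interleukin-2. The group held 36 genes, chosen by symbol from a list of endoplasmic reticulum (ER), cytosolic and mitochondrial chaperones, stress sensors and factors of ER-associated degradation. All 36 were among the 24421 gene symbols of the count table, and all 36 passed the filter on low counts that left 12461 genes to test. They comprised 14 ER chaperones and folding enzymes, 6 sensors and transcription factors of the unfolded protein response, 4 factors of ER-associated degradation, 3 mitochondrial chaperones, and 8 cytosolic chaperones with the heat shock regulator Hsf1.

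Bulk RNA sequencing covered 12 libraries in 4 groups of 3, WT and KO cTreg and WT and KO eTreg, where c stands for central (sorted CD62Lhi) and e for effector (sorted CD62Llo). Every group carried the R26tomato+/+ reporter and Foxp3eGFPERT2+/+, the knock-in that restricts tamoxifen-induced recombination to Foxp3-expressing cells, and every group received tamoxifen at 2 mg/kg intraperitoneally for 5 days, with harvest 10 days after induction. Live CD4+ cells positive for both reporters were sorted, the KO cells with an added CD25lo gate, and each replicate pooled spleen and lymph nodes of 2 to 3 mice, so that p-values describe the spread between pools. The titles and cell type field call the libraries CD25WT or CD25KO, while the genotype field gives CD25FL/FL for the WT and CD25WT/WT for the KO libraries, the other way round; the titles were followed here.

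Il2ra, which encodes CD25, was read at 523 to 579.8 normalised CPM (counts scaled to library size) in WT cTreg, 112 to 122 in KO cTreg, 464 to 562 in WT eTreg and 116 to 132 in KO eTreg. The KO libraries by title thus held the lower Il2ra in both subsets. The deletion and the sort on CD25lo cannot be told apart in this value. Libraries held 14567313 to 19121577 counts. Foxp3 lay between 158 and 407 CPM and was lower in the KO libraries of both subsets (log2 fold change -0.79 in cTreg and -0.48 in eTreg), while Cd4 was 543 to 804 CPM and Cd3e 571 to 676. The share of counts on Rn45s, the ribosomal RNA precursor, was 22.4% to 24.4% in WT cTreg, 18.1% to 18.5% in KO cTreg, 4.11% to 4.34% in WT eTreg and 3.19% to 3.32% in KO eTreg, and calls that changed when scaling left it out are named.

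Proteins that enter the secretory pathway fold in the ER with the help of the chaperones Hspa5 (BiP) and Hsp90b1 (GRP94), the lectin chaperones calreticulin and calnexin, and disulfide isomerases. When unfolded proteins accumulate, the membrane sensors Ern1 (IRE1), Eif2ak3 (PERK) and Atf6 act through the transcription factors Xbp1, Atf4 and cleaved Atf6 to raise chaperones and the degradation machinery. Cytosolic chaperones are raised instead by Hsf1 through heat shock elements, and mitochondria hold a chaperone set of their own; T cells draw on all of these when they grow, divide and secrete.

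The DNA element through which ATF6 acts, the ER stress element (CCAAT, any 9 bases, CCACG), was searched on both strands of RefSeq promoters (GRCm38.p6, 250 bases before to 50 after a start), which were at hand for 28 of the 36 members. The 8 others were Manf, Hyou1, Atf6, Hspa9, Hspa8, Hsp90aa1, Hsp90ab1 and Hsf1. The full element lay in 37 of 27025 genes with a promoter (0.137%), and 8 of these 37 were members: Hspa5, Hsp90b1, Calr, Canx, Pdia6, Dnajc3, Creld2 and Syvn1. The elements are shown because 4 of these genes, Hspa5, Hsp90b1, Dnajc3 and Syvn1, were called higher in KO cTreg, as were 14.8% of all genes tested. The match in capitals has 5 bases of flank on each side and is read on the strand where it runs CCAAT to CCACG.
Hspa5, chr2:34772020-34772048 (+): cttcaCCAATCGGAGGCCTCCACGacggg
Hsp90b1, chr10:86705633-86705661 (-): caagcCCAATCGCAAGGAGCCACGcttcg
Hsp90b1, chr10:86705528-86705556 (+): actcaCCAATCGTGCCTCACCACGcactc
Dnajc3, chr14:118937822-118937850 (+): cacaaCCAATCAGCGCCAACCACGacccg
Syvn1, chr19:6046527-6046555 (+): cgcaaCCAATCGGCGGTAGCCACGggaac
Calr, chr8:84847070-84847098 (+): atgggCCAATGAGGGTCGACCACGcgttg
Canx, chr11:50325795-50325823 (-): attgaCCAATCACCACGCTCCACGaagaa
Pdia6, chr12:17266486-17266514 (+): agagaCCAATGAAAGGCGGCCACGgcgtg
Creld2, chr15:88819515-88819543 (-): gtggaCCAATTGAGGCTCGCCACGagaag

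Hsp90b1 held a pair of elements, 1 on each strand, the first at 212 to 194 and the second at 107 to 89 bases before the RefSeq start. The first 185 bases of its promoter, on the gene's strand and with both elements in capitals (the second reads as its reverse complement), were as follows, and those of Syvn1, a gene with 1 element at 44 to 26 bases before the start, stand beside them because both genes rose in KO cTreg and differed in opposite directions between the subsets.
Hsp90b1, chr10:86705510-86705694 (-): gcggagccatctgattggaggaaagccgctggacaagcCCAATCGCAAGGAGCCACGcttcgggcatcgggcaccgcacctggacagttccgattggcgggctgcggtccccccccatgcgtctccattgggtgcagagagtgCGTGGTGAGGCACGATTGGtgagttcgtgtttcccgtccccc
Syvn1, chr19:6046326-6046575 (+): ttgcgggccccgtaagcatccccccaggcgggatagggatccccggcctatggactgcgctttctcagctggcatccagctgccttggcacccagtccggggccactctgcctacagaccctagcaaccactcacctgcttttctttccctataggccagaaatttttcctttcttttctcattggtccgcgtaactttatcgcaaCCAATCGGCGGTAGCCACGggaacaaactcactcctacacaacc

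Shorter and more common motifs were counted the same way. CCACG, the last part of the full element, lay in 22 of 28 members and in 35.5% of all promoters. ACGTGG, which can overlap CCACG read on the other strand, lay in Pdia6, Dnajb9, Dnajc3, Herpud1 and Hsph1 and in 9.40% of all, and TGACGTGG, which contains it, in none of the 28 and in 0.714% of all. TGATGNAA, the core of the site bound by Atf4 with C/EBP proteins, lay in Herpud1 and in 4.51% of all. A heat shock element (GAANNTTCNNGAA or TTCNNGAANNTTC) lay in Hspd1, Hspe1 and Hsph1 and in 0.662% of all. A match on one strand is also a match to the other form on the opposite strand, and is counted once per gene. The matches of Hspd1 and Hspe1 lay before the RefSeq start. That of Hsph1 lay after it, at 15 to 27 or 36 to 48 bases, depending on the RefSeq start. Hspd1 and Hspe1, the mitochondrial chaperonin and its lid, lie head to head on chromosome 1 and share the element, in which 2 overlapping matches together span 18 bases.
Hspe1 and Hspd1, chr1:55088053-55088082 (+): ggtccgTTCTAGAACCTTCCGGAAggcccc
Hsph1, chr5:149636282-149636306 (-): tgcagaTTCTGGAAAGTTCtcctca

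Per kilobase of exon (GENCODE vM21), and as a mean over the 12 libraries, cytosolic Hsp90ab1 was the most abundant member at 343 CPM per kb, followed by Hspa8 at 201, Calr at 143, Pdia3 at 128, Hspa5 at 99.5 and Hsp90b1 at 85.1. The sensors were scarce on the same scale: Eif2ak3 stood at 5.93, Atf6 at 5.58 and Ern1 lower still. The stress-inducible Hspa1b and Hspa1a were the lowest of the 36, at 0.745 and 0.190. The 14 ER chaperones ranged widely, from Calr down to Dnajb9 at 8.72 and Sdf2l1 at 9.28. In bulk libraries, fewer cells with a transcript and less of it per cell cannot be told apart.

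KO against WT was first compared in cTreg, the CD62Lhi cells. In KO cTreg 7 members rose and 4 fell. The 7 were ER chaperones (Hspa5, Hsp90b1, Pdia3, Dnajc3, Sdf2l1), the ER sensor Atf6 and the ubiquitin ligase Syvn1. The 4 were the mitochondrial chaperones Hspe1 and Hspa9, cytosolic Hsp90ab1 and Herpud1 of ER-associated degradation. All differences were small, with fold changes between 0.753 and 1.37 of the WT level. Of all 12461 genes tested, 14.8% were called higher and 12.6% lower (edgeR's quasi-likelihood test, p adjusted by Benjamini-Hochberg over all genes, called when under 0.05, as throughout), so 30.6% of the members called is close to the 27.5% of all genes. The members' median log2 fold change was 0.04, against 0.00 for all genes tested.

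**Figure D1:**
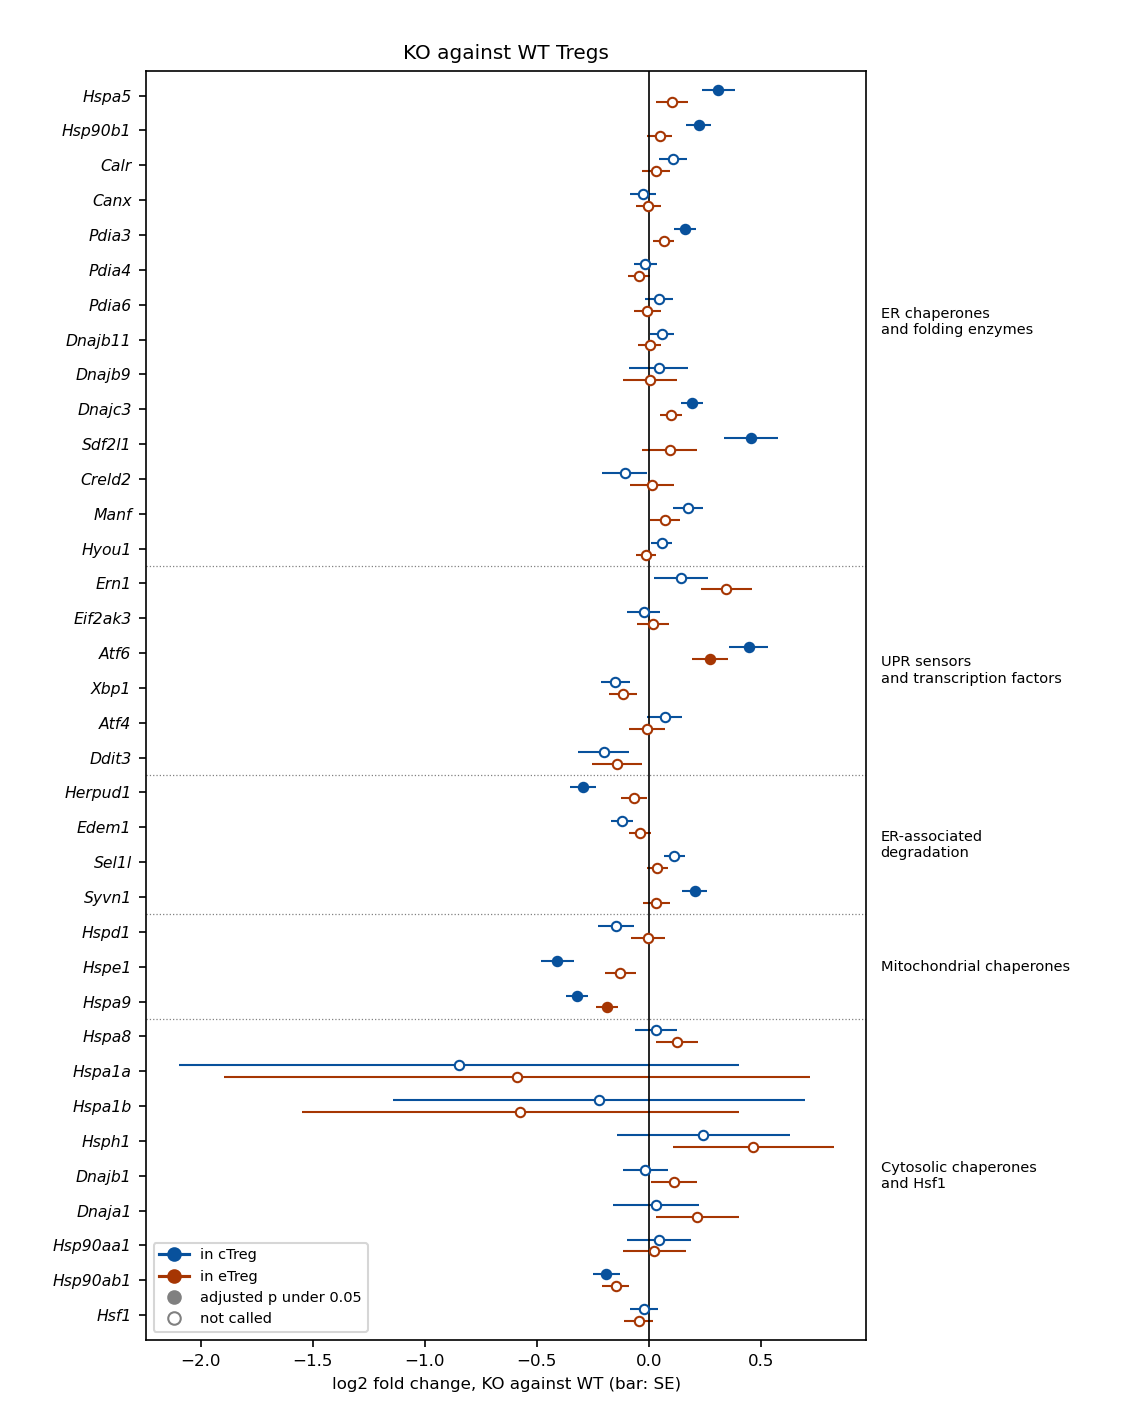
Log2 fold change of KO against WT (x axis, bars are SE) for the 36 members, in cTreg (blue) and eTreg (brown), filled where the adjusted p was under 0.05. In cTreg 5 ER chaperones, Atf6 and Syvn1 lie to the right and Herpud1, Hspe1, Hspa9 and Hsp90ab1 to the left; in eTreg only Atf6 and Hspa9 are filled.

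Among the 14 ER chaperones, 5 rose in KO cTreg, none fell and 9 did not pass the test, with log2 fold changes from -0.11 to 0.46 and a median of 0.08. Hspa5, the ER HSP70 that also holds the stress sensors inactive, was read at 317, 271 and 315 CPM in the 3 WT cTreg libraries and at 386, 333 and 399.7 CPM in the KO. All KO libraries lay above all WT libraries. The log2 fold change was 0.31 ± 0.07 (SE), or 1.24-fold (edgeR adjusted p = 0.00512).

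Hsp90b1, the ER HSP90, was read at 211, 242 and 230.0 CPM in WT cTreg and at 259, 279 and 259 in KO cTreg, again without overlap. It rose by 0.22 ± 0.06 on the log2 scale (edgeR adjusted p = 0.00726). Dnajc3, a cochaperone that also inhibits PERK, was read at 162, 165 and 155 CPM in WT and at 181, 188 and 181 in KO cTreg. Its groups did not overlap, and it rose by 0.19 ± 0.05 (edgeR adjusted p = 0.00935). Both calls were lost without KO cTreg replicate 2, with edgeR adjusted p values of 0.0591 for Hsp90b1 and 0.0540 for Dnajc3.

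Pdia3, a disulfide isomerase that works with calnexin and calreticulin, was read at 304, 311 and 302 CPM in WT cTreg and at 326, 362 and 336 in KO cTreg. The KO libraries lay above the WT libraries by a log2 fold change of 0.16 ± 0.05 (edgeR adjusted p = 0.0210). The call was lost without WT cTreg replicate 3 (edgeR adjusted p = 0.0698), without KO cTreg replicate 2 (0.153), and in a fit of the 6 cTreg libraries alone (0.0573). Sdf2l1, a partner of ER DNAJ cochaperones, was the member with the largest rise. It stood at 12.03, 9.08 and 10.8 CPM in WT and at 13.5, 14.4 and 15.8 in KO cTreg, a log2 fold change of 0.46 ± 0.12 (edgeR adjusted p = 0.0103), and its call was lost without WT cTreg replicate 2 (0.0559) or KO cTreg replicate 3 (0.0553). Manf, a secreted ER stress protein, lay just outside the threshold at 0.18 ± 0.07 (edgeR adjusted p = 0.0647).

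The other 8 ER members, which were Calr, Canx, Pdia4, Pdia6, Dnajb11, Dnajb9, Creld2 and Hyou1, had log2 fold changes from -0.11 for Creld2 to 0.11 for Calr in KO cTreg, and none passed the test. Calr, Canx, Pdia6 and Creld2 hold the same element as Hspa5 and Hsp90b1. Of the 8 members with a full element, 4 were thus called higher and 4 were not called, against 14.8% of all genes called higher. Pdia3 and Sdf2l1 rose without a full element in the promoter searched. Other genes with the element were not followed, and its part in the calls was not tested. Summed over the 14 genes, the ER chaperones held 2025 to 2134 CPM in WT cTreg and 2238 to 2333 in KO cTreg, without overlap.

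Atf6, the sensor whose cleaved cytosolic part binds the ER stress element, was the only 1 of 6 sensors and factors called in KO cTreg. It was read at 29.9, 29.1 and 31.2 CPM in WT cTreg and at 39.9, 38.2 and 44.8 in KO cTreg. The groups were clearly apart, at 30.1 ± 1.05 against 41.0 ± 3.47 CPM (SD, n = 3), with a log2 fold change of 0.45 ± 0.09 (edgeR adjusted p = 0.00115). Xbp1, the target of IRE1 splicing, was at -0.15 ± 0.06 (edgeR adjusted p = 0.0951), with the KO libraries all below the WT libraries. Ern1, Eif2ak3, Atf4 and the stress-induced factor Ddit3 (CHOP) had log2 fold changes of 0.14, -0.02, 0.07 and -0.20, none called. Gene counts do not show the spliced form of Xbp1, the cleavage of Atf6 or the phosphorylation of PERK.

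The 4 factors of ER-associated degradation did not move together. Syvn1 (HRD1), the ligase that marks ER proteins for degradation, was read at 57.0, 58.6 and 61.9 CPM in WT cTreg and at 68.8, 67.1 and 68.7 in KO cTreg. It rose by 0.20 ± 0.06 without overlap (edgeR adjusted p = 0.0147), a call lost without WT cTreg replicate 1 (0.0567) and with the replicate number as a block in the 6 cTreg libraries (0.0572). Herpud1, which recruits substrates to the same ligase, went the other way.

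Herpud1 was read at 73.3, 71.9 and 67.6 CPM in WT cTreg and at 55.7, 57.9 and 60.1 in KO cTreg. Every KO library lay below every WT library, and Herpud1 fell by 0.29 on the log2 scale (SE 0.06, edgeR adjusted p = 0.00140). Sel1l, the adaptor of Syvn1, was at 0.11 ± 0.05 (edgeR adjusted p = 0.0824) and Edem1, which extracts misfolded glycoproteins, at -0.12 ± 0.05 (edgeR adjusted p = 0.0802), both just outside the threshold.

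In mitochondria 2 of 3 chaperones fell in KO cTreg. Hspe1, the lid of the chaperonin, was read at 51.2, 47.2 and 46.2 CPM in WT cTreg and at 40.4, 34.8 and 33.9 in KO cTreg. It fell by 0.41 on the log2 scale, to 0.753 of the WT level (SE 0.07, edgeR adjusted p = 0.000535). Hspa9, the HSP70 of mitochondrial import, had the most even values of the 3.

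Hspa9 was read at 137, 139 and 139 CPM in WT cTreg and at 112, 113 and 108 in KO cTreg. The groups stood far apart for their spread, at 138 ± 1.07 against 111 ± 2.42 CPM (SD, n = 3), and Hspa9 fell by 0.32 (SE 0.05, edgeR adjusted p = 0.000142). Hspd1, the chaperonin that shares its promoter region with Hspe1, was at -0.15 ± 0.08 with overlapping groups (edgeR adjusted p = 0.196). Hspd1 and Hspe1 overlap on opposite strands over 4.2% and 7.6% of their exonic length, and reads there cannot be assigned without strand, whose use in counting is not given in the sources used here. Summed, the 3 genes held 279 to 291 CPM in WT cTreg and 227 to 244 in KO cTreg.

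Of the 9 cytosolic members, 1 was called in KO cTreg. Hsp90ab1, the constitutive cytosolic HSP90, was read at 1138, 1119 and 1091 CPM in WT cTreg and at 976, 984 and 973 in KO cTreg. The KO values, with an SD of 5.83 CPM, were below all WT values, and Hsp90ab1 fell by 0.19 on the log2 scale (SE 0.06, edgeR adjusted p = 0.0259). The call was lost in each fit that left out replicate 1 or 2 of WT cTreg, and in each without replicate 1 or 3 of KO cTreg (edgeR adjusted p = 0.0538 to 0.0767). It was also lost with the replicate block in the 6 cTreg libraries (0.0764), where 8 members were called in place of 11, Pdia3 (0.107) and Syvn1 being the others lost. Calls over all genes fell under that block too, from 1847 higher and 1574 lower to 1370 and 1180. Hspa8, Hsp90aa1, Dnajb1, Dnaja1 and Hsf1 lay between -0.02 and 0.05, none called.

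Of 15 cell cycle genes, 3 (20%) were called higher and none lower in KO cTreg, against 14.8% of all genes called higher. All 15 had a positive log2 fold change, with a median of 0.91. Their sum was 493 to 616 CPM in WT cTreg and 657, 1117 and 922 in KO cTreg replicates 1 to 3. KO cTreg replicate 2 held the highest sum. Without it the calls of Hsp90b1, Dnajc3 and Pdia3 were lost, and without KO cTreg replicate 3 those of Sdf2l1 and Hsp90ab1. Calls over all genes fell too, from 1847 higher and 1574 lower to 1328 and 1206 without KO cTreg replicate 2. Without KO cTreg replicate 3 they were 1437 and 1153. Leaving out a WT cTreg library lowered them as well, to 1566 and 1258 (replicate 1), 1639 and 1398 (replicate 2) and 1379 and 1235 (replicate 3). Member calls were also lost without WT cTreg replicate 1 (Syvn1 and Hsp90ab1), replicate 2 (Sdf2l1 and Hsp90ab1) and replicate 3 (Pdia3). Without KO cTreg replicate 1 the calls over all genes were 1838 and 1465, and Hsp90ab1 was lost. The part of cell division in the members' calls was not tested.

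**Figure D2:**
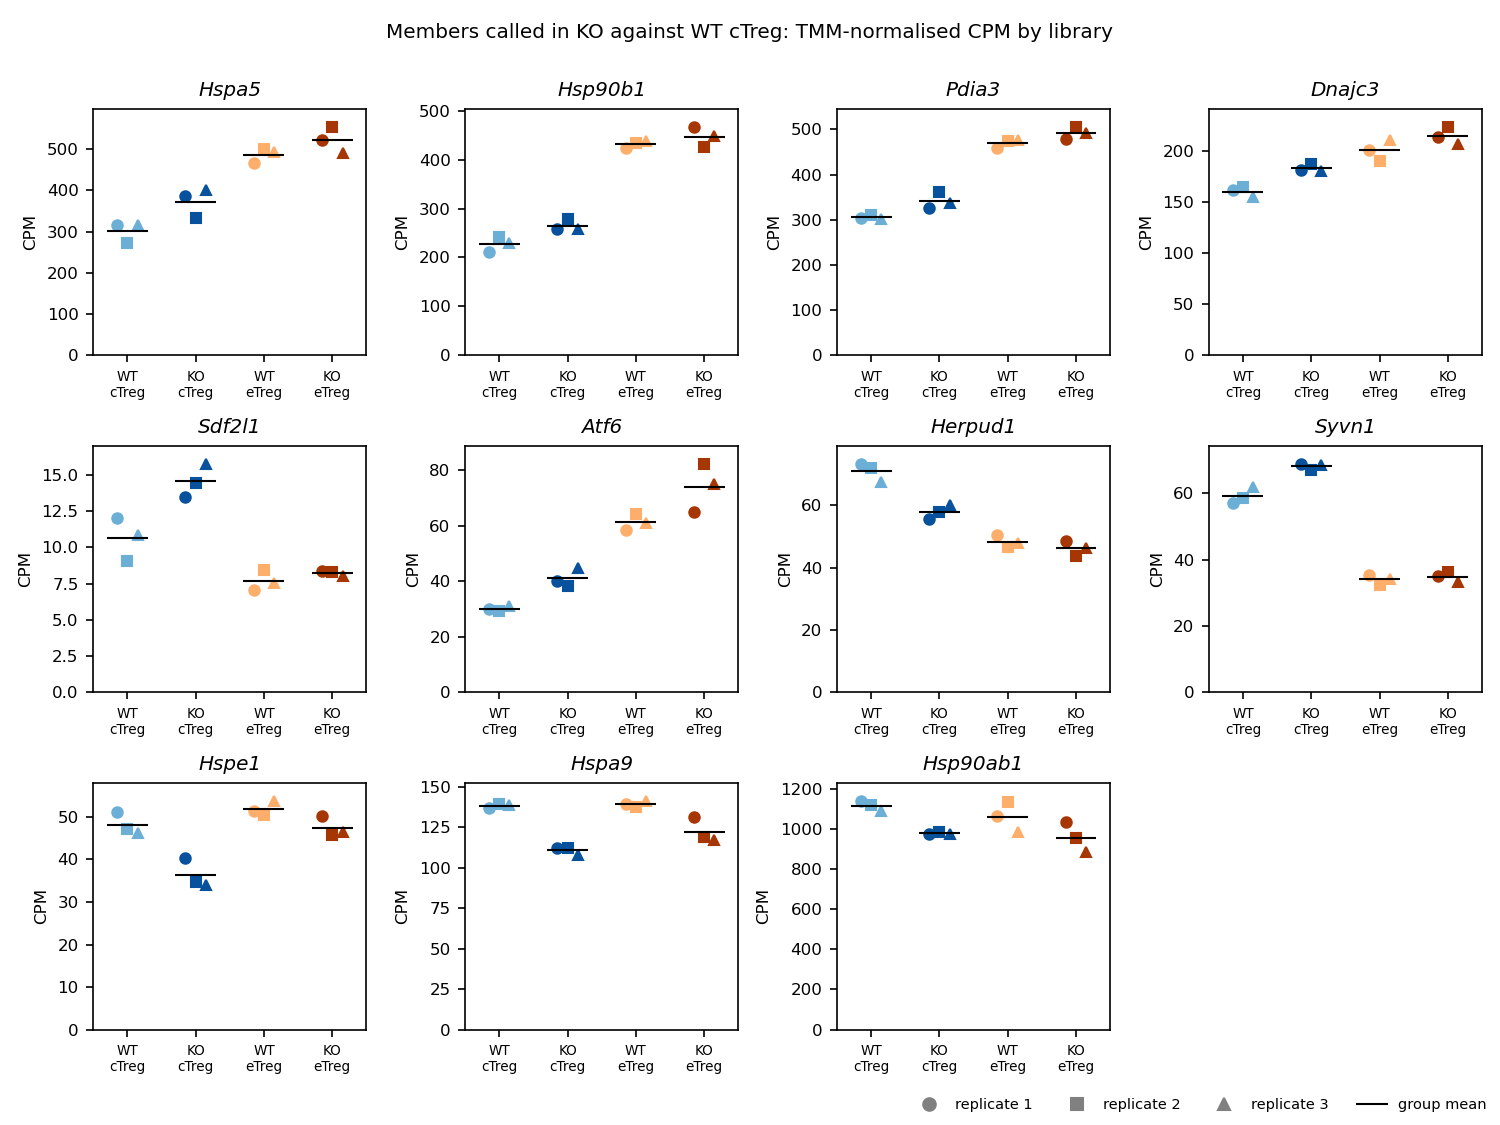
CPM (y axis, from 0) of the 11 members called in KO against WT cTreg, by group and replicate, with the group mean as a line. The 3 KO cTreg points of Hspa9 (108 to 113 CPM) lie below the 3 WT points (137 to 139), and those of Atf6 (38.2 to 44.8) lie above (29.1 to 31.2).

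In eTreg the same loss of CD25 went with few differences among the members. Atf6 rose and Hspa9 fell, the 2 called of 36 (5.56%), against 3.25% of all genes called higher and 3.40% lower. The members' median log2 fold change was 0.01, as for all genes. With scaling that leaves out Rn45s, the split of all genes called moved from 405 higher and 424 lower to 301 and 546, and Hspa9 was the 1 member called. These 2 genes had the same direction as in cTreg. The groups compared were other libraries, but scaling and spread were estimated over all 12 libraries, so the 2 comparisons are not independent.

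In WT eTreg, Atf6 stood at 58.3, 64.2 and 60.8 CPM, and in KO eTreg at 64.7, 82.1 and 74.8. The lowest KO library stood only just above the highest WT library. The log2 fold change was 0.27 ± 0.08 (edgeR adjusted p = 0.0471), and the call was lost in 9 of the 12 fits that left out 1 library (edgeR adjusted p up to 0.192, without KO eTreg replicate 2) with scaling without Rn45s (0.0784), and in a fit of the 6 eTreg libraries alone (0.0869). The 3 WT eTreg libraries held 139, 137 and 141 CPM of Hspa9, and the KO libraries, without overlap, 131, 119 and 117. It fell by 0.19 (SE 0.05, edgeR adjusted p = 0.0285), a call lost without any 1 of WT eTreg replicates 1, 2 or 3 or KO eTreg replicates 2 or 3 (0.0655 to 0.147), and in the fit of 6 libraries (0.0553).

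Ern1, the kinase and nuclease that splices Xbp1, came next. Its values were 17.3, 14.3 and 20.1 CPM in WT and 20.4, 20.5 and 24.5 in KO eTreg, a log2 fold change of 0.34 ± 0.11 (edgeR adjusted p = 0.0853). The groups did not overlap but nearly touched, and the gene passed the test with the replicate number as a block (edgeR adjusted p = 0.0462), which made 3 members called, and without WT eTreg replicate 3 (0.0319). Of the 14 ER chaperones none was called in eTreg, with log2 fold changes from -0.05 to 0.10 and a median of 0.02. Hspa5 was at 0.10 ± 0.07, Hsp90b1 at 0.05 ± 0.06 and Sdf2l1 at 0.09 ± 0.12. At an unadjusted p under 0.05 (edgeR), 4 members passed in eTreg (Ern1, Atf6, Hspa9 and Hsp90ab1), against 19.4% of all genes.

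The difference of the KO effect between eTreg and cTreg was tested directly as an interaction, and 0 of 36 members were called (edgeR), against 0.803% of all genes called higher and 3.00% lower. DESeq2 and limma-voom also called 0. At an unadjusted p under 0.05 (edgeR), 3 of 36 members passed, against 16.7% of all genes. The 3 were Hsp90b1 (-0.17 ± 0.08), Herpud1 (0.23 ± 0.08) and Hspe1 (0.28 ± 0.10). Without KO cTreg replicate 1, Hspe1 was called (edgeR adjusted p = 0.0405). The calls in cTreg that were missed in eTreg are thus not shown to differ between the subsets, and the intervals do not show that the effects were alike: that of Sdf2l1, at -0.36 ± 0.17, ran from -0.76 to 0.04 (95%, from the residual degrees of freedom alone).

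The subsets differed far more than the genotypes. In WT cells, 13 members were higher and 10 lower in eTreg than in cTreg, and in KO cells 17 were higher and 10 lower. In WT cells 35.7% of all genes were higher and 35.8% lower, in KO cells 36.1% and 35.8%, so that 63.9% and 75.0% of members called stand beside 71.5% and 72.0% of all genes. The members' median log2 fold changes were 0.09 and 0.13, against 0.00 and 0.00. Of the 15 cell cycle genes, 1 was higher and 2 lower in WT eTreg, and 10 were lower in KO eTreg; their part was not tested. With scaling that leaves out Rn45s, the split of all genes in WT cells moved from 4449 higher and 4465 lower to 4936 and 3990, and the members' counts to 16 higher and 8 lower. Under that scaling Dnajb11, Xbp1 and Hspe1 were also called higher in WT eTreg (edgeR adjusted p = 0.0114, 0.0102 and 0.0331), and Ddit3 (0.0537) and Manf (0.146) were lost. In KO cells Calr was gained (0.0330), and Ddit3 (0.0860) and Hspa8 (0.0554) were lost.

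Most ER chaperones were higher in eTreg. Of 14, 9 were higher and 3 lower in WT cells, and 8 and 3 in KO cells. In WT eTreg, Hsp90b1 stood at 425, 435 and 439 CPM against 211 to 242 in WT cTreg, and at 468, 426 and 448 in KO eTreg against 259 to 279 in KO cTreg. The subsets did not come near each other in either genotype, with log2 differences of 0.93 ± 0.06 and 0.75 ± 0.06 (edgeR adjusted p = 3.26e-10 and 3.81e-09). Hspa5 stood at 467 to 499.8 CPM in WT eTreg and 491 to 554 in KO eTreg, log2 differences of 0.69 ± 0.07 and 0.49 ± 0.07.

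Pdia3 (0.62 in WT and 0.53 in KO cells), the lectin chaperone Canx (0.50 and 0.52), the BiP cochaperone Dnajb9 (0.58 and 0.54), Dnajc3 (0.32 and 0.23) and the isomerases Pdia4 (0.31 and 0.28) and Pdia6 (0.32 and 0.26) were higher in eTreg of both genotypes. Calr was called higher in WT cells (0.18) and not in KO cells (0.11). The WT call was lost without WT cTreg replicate 2 or WT eTreg replicate 3, and in KO cells Calr passed with the replicate block in 6 libraries (edgeR adjusted p = 0.0318). Sdf2l1 (-0.46 and -0.82), Manf (-0.19 and -0.29) and Hyou1, the exchange factor of Hspa5 (-0.23 and -0.30), were lower in eTreg of both genotypes. The call of Manf in WT cells was lost with the DESeq2 test, with scaling without Rn45s, and without WT cTreg replicate 1 or WT eTreg replicate 2. The summed ER chaperones held 2758 to 2928 CPM in WT eTreg and 2926 to 3017 in KO eTreg. The sum of KO cTreg, at 2238 to 2333, lay between those of WT cTreg and both eTreg groups without overlap. Abundant genes weigh most in this sum, and it does not describe each gene. Of the ER chaperones called higher in KO cTreg, Hspa5, Hsp90b1, Pdia3 and Dnajc3 were also higher in eTreg. Sdf2l1, which rose by 0.46 in KO cTreg, was lower in eTreg.

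**Figure D3:**
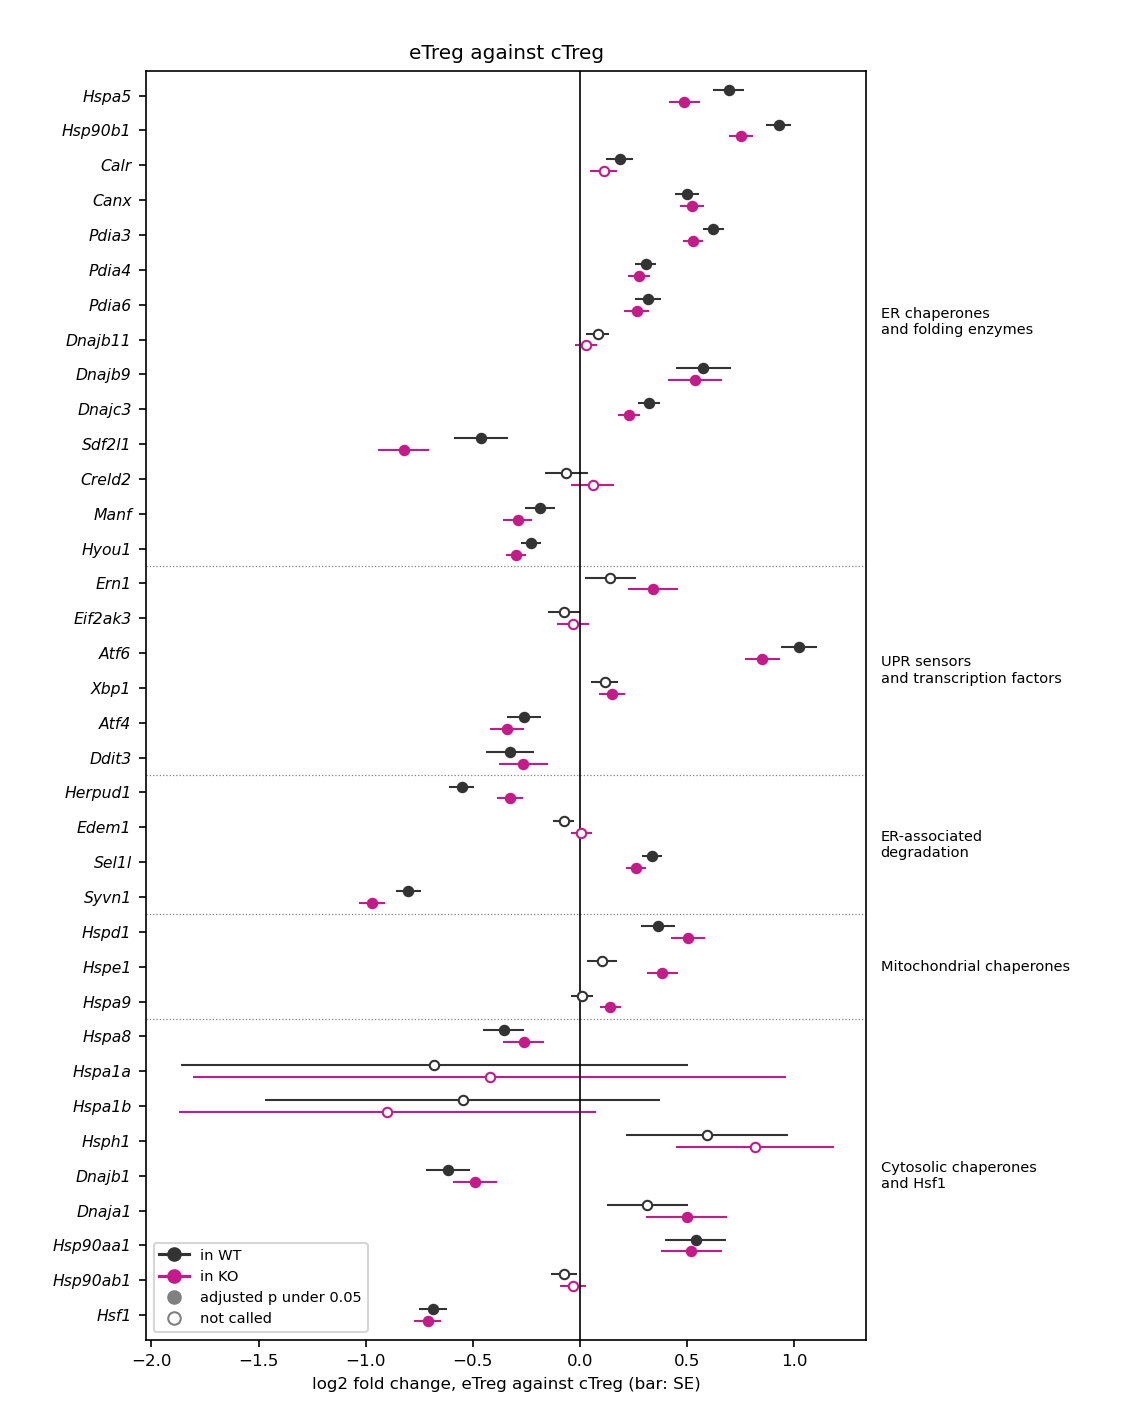
Log2 fold change of eTreg against cTreg (x axis, bars are SE) for the 36 members, in WT (dark grey) and KO cells (magenta), filled where the adjusted p was under 0.05. Atf6 (1.02 in WT cells) and Hsp90b1 (0.93) lie farthest to the right among filled points, and Syvn1 (-0.97 in KO cells) farthest to the left.

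Atf6 had the largest subset difference of the 36 in WT cells. At 58.3 to 64.2 CPM in WT eTreg it was 2.03-fold above WT cTreg (log2 difference 1.02 ± 0.09, edgeR adjusted p = 1.38e-08), and in KO cells the log2 difference was 0.85 ± 0.08 (edgeR adjusted p = 7.71e-08). Its group means ran upward from WT cTreg through KO cTreg and WT eTreg to KO eTreg, with no overlap between neighbours. Ern1 was called higher in KO eTreg than in KO cTreg (0.34 ± 0.12, edgeR adjusted p = 0.0138), lost without KO cTreg replicate 2 or KO eTreg replicate 3, and was at 0.14 ± 0.12 in WT cells.

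Atf4, the factor downstream of PERK, was lower in eTreg of both genotypes (-0.26 and -0.34), and Ddit3 was called lower in both (-0.32 and -0.26), although the calls were lost in 4 (WT) and 13 (KO) of the 22 other settings. Eif2ak3 itself was at -0.07 and -0.03, not called. Of 13 further targets and kinases of the integrated stress response, 4 were higher and 4 lower in WT eTreg, and 4 and 7 in KO eTreg. These are 61.5% and 84.6% called, against 71.5% and 72.0% of all genes. Xbp1 was called higher in KO cells (0.15 ± 0.06, edgeR adjusted p = 0.0411), a call lost in 8 settings. In WT cells it was at 0.12 ± 0.06, not called, but passed without WT cTreg replicate 1 (edgeR adjusted p = 0.00835). In ER-associated degradation, Sel1l was higher (0.34 and 0.26) while its partner Syvn1 was lower (-0.80 and -0.97) and Herpud1 lower (-0.55 and -0.33) in eTreg.

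In eTreg, Syvn1 stood at 35.4, 32.4 and 34.2 CPM in WT and 34.9, 36.2 and 33.2 in KO cells, all below the 57.0 to 68.8 of the cTreg libraries (edgeR adjusted p = 3.55e-09 in WT and 3.82e-10 in KO cells). The 4 members that rose in KO cTreg and held a full ER stress element thus split between the subsets: Hspa5, Hsp90b1 and Dnajc3 were higher in eTreg and Syvn1 was lower. These comparisons share the cTreg libraries with the KO comparison.

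Mitochondrial Hspd1 was higher in eTreg of both genotypes (0.36 ± 0.08 and 0.51 ± 0.08). Hspe1 was at 0.10 ± 0.07 in WT cells, not called, and was higher in KO cells (0.38 ± 0.07, edgeR adjusted p = 0.000144), and Hspa9 was at 0.01 ± 0.05 in WT and higher in KO cells (0.14 ± 0.05, edgeR adjusted p = 0.0160). For Hspe1 and Hspa9 KO cTreg was the low group: Hspa9 stood at 108 to 113 CPM there, against 117 to 141 in the other 3 groups. Hspd1 in KO cTreg (84.6 to 91.3 CPM) overlapped WT cTreg (90.6 to 105). The call of Hspa9 in KO cells was lost without KO cTreg replicate 3 or KO eTreg replicate 1.

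In the cytosol, Hsf1, the master regulator of heat shock genes, was lower in eTreg by 0.69 in WT and 0.71 in KO cells on the log2 scale, with 59.2, 64.1 and 62.2 CPM in WT cTreg and 38.2, 40.9 and 36.2 in WT eTreg. The cochaperone Dnajb1 (-0.62 and -0.49) and the constitutive HSP70 Hspa8 (-0.36 and -0.26) were also lower, while Hsp90aa1, the inducible HSP90, was higher (0.54 and 0.52). Hsp90ab1 was at -0.07 and -0.03, not called. Dnaja1 was called higher in KO cells alone (0.50 ± 0.19, edgeR adjusted p = 0.0388), and the calls of Dnaja1 and Hspa8 in KO cells were lost in 10 and 7 settings. Hsp90aa1 lost its call in KO cells with the replicate block in 6 libraries (edgeR adjusted p = 0.0713).

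Replicates spread unevenly over the compartments. The pooled SD of log2 CPM within groups was under the median of all genes tested (0.119) for 12 of 14 ER chaperones, 4 of 4 degradation factors and 3 of 3 mitochondrial chaperones, and for 2 of 9 cytosolic members. Hsph1, the exchange factor of HSP70, had an SD of 0.466, wider than that of 92.4% of genes tested. It was read at 29.1, 68.1 and 54.2 CPM in WT cTreg, 68.5, 54.2 and 57.6 in KO cTreg, 88.0, 73.6 and 68.1 in WT eTreg, and 163, 84.4 and 70.4 in KO eTreg. WT cTreg replicate 1 was the lowest of all 12 libraries and KO eTreg replicate 1 the highest.

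Hsph1 was not called by edgeR in any of the 5 comparisons. Between the subsets in KO cells it was at 0.82 ± 0.37 (edgeR adjusted p = 0.0749), and it passed there with DESeq2 (adjusted p = 0.0397), without WT cTreg replicate 1 (edgeR, 0.0496) and without KO eTreg replicate 3 (0.0375). Its log2 fold change of KO against WT in cTreg was 0.24 ± 0.38 and turned to -0.03 without WT cTreg replicate 1. In eTreg it was 0.47 ± 0.36 and 0.02 without KO eTreg replicate 1. Dnaja1, the HSP40 that works with Hspa8, had the same extremes at 117 CPM in WT cTreg replicate 1 and 262 in KO eTreg replicate 1, and Hspa8 reached 949 CPM in the latter against 776 and 693 in its 2 partners. The immediate early genes, which rise during tissue handling, held 951 to 1158 CPM in eTreg and 1192 to 1758 in cTreg, and were not highest in KO eTreg replicate 1 (1022); their part in the spread was not tested.

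Hspa1a and Hspa1b, a near-identical pair whose reads may be split between them by the counting, had the widest spreads of the 36 (SD 1.48 and 1.21). Hspa1b was read at 3.29, 4.25 and 0.692 CPM in WT cTreg, 3.85, 0.914 and 2.44 in KO cTreg, 4.12, 1.11 and 0.566 in WT eTreg, and 2.66, 0.735 and 0.443 in KO eTreg. These values come from 8 to 68 counts a library, and the groups overlapped. Hspa1b passed in 1 setting, between the subsets in KO cells with the replicate block in 6 libraries (edgeR adjusted p = 0.0281). Hspa1a had 0 to 25 counts a library. The pair summed gave log2 fold changes of -0.34 ± 1.02 in cTreg and -0.59 ± 1.07 in eTreg, none called.

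**Figure D4:**
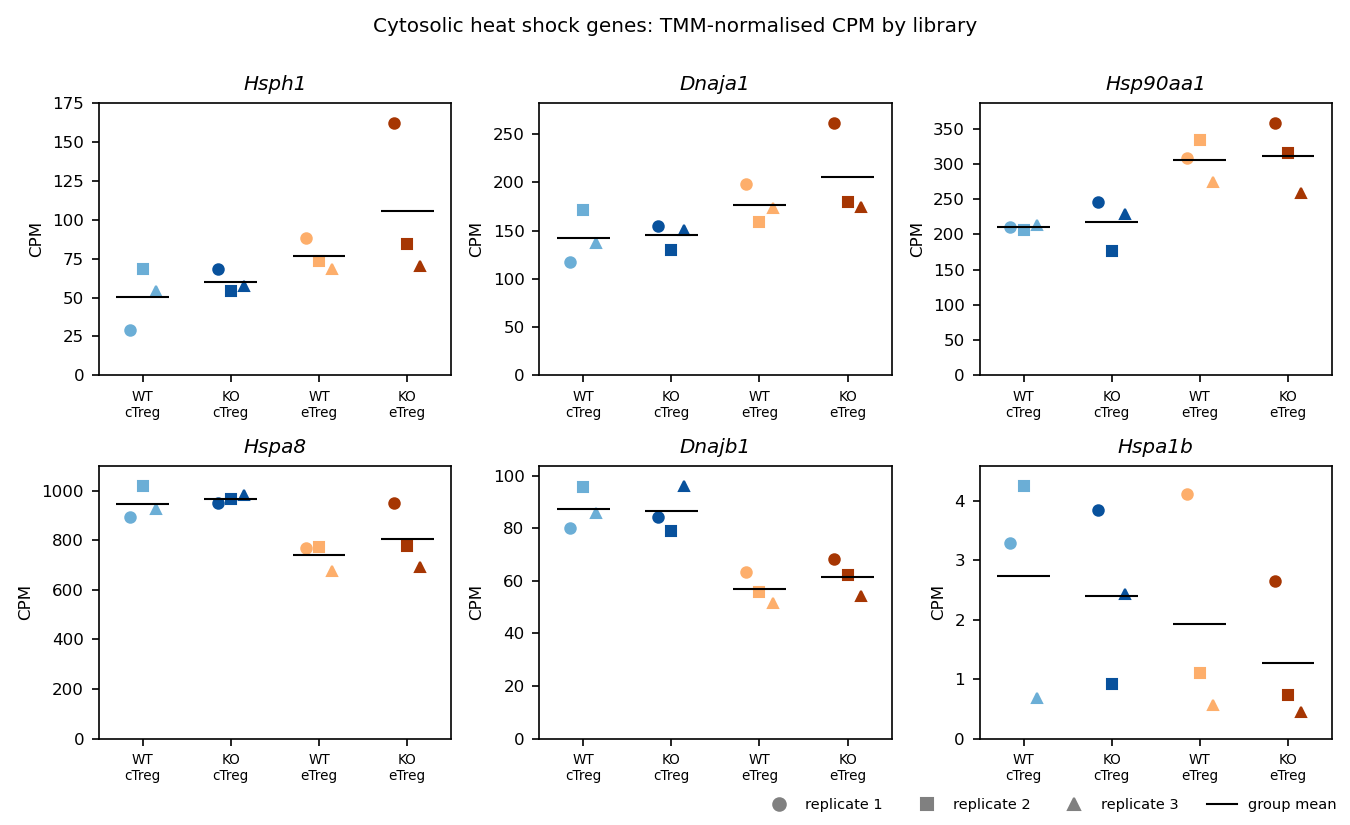
CPM (y axis, from 0) of 6 cytosolic members by group and replicate, with the group mean as a line. KO eTreg replicate 1 stands highest for Hsph1 (163 CPM) and Dnaja1 (262), WT cTreg replicate 1 is lowest for both, and Hspa1b does not exceed 4.25 CPM.

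Other genes of these pathways, 149 in lists by function, had 143 in the table and 134 tested. In KO cTreg 26 were higher and 9 lower (26.1%), against 27.5% of all genes called. In KO eTreg 2 were higher and 1 lower (2.24%), against 6.65%. Each list below stands beside 14.8% of all genes called higher and 12.6% lower in KO cTreg. In ER folding, 4 of 19 rose and 1 fell in KO cTreg (26.3% called). Txndc5, a disulfide isomerase, rose by 0.38 and Hspa13 by 0.37, while Sil1, the exchange factor of Hspa5, fell by 0.63 on the log2 scale. In ER-associated degradation 4 of 18 (22.2%) rose, with Selk at 0.38 and Vcp, the segregase that pulls proteins out of the membrane, at 0.22. In the translocon, signal peptidase and transport list 5 of 22 (22.7%) rose and none fell.

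Sec11c, a catalytic subunit of signal peptidase, was the single gene of these 134 called in the interaction. It was read at 42.5, 43.8 and 41.2 CPM in WT cTreg, 63.9, 65.5 and 65.8 in KO cTreg, 87.6, 91.8 and 89.6 in WT eTreg, and 91.4, 109 and 98.2 in KO eTreg. It rose by 0.61 ± 0.06 in KO cTreg (edgeR adjusted p = 2.54e-06) and was at 0.15 ± 0.06 in KO eTreg, a difference of -0.47 ± 0.09 (edgeR adjusted p = 0.00387). Sec24d, a COPII coat subunit, rose by 0.60 in KO cTreg, and Srpr, the receptor of the signal recognition particle, was the 1 gene of that list that rose in KO eTreg (0.18).

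Among targets and kinases of the integrated stress response, 5 of 13 (38.5%) rose and none fell in KO cTreg, against 14.8% of all genes called higher. Eif2ak2 (PKR, a kinase raised by interferon) was at 0.39 and Cebpg, a partner of Atf4, at 0.28. Eif2ak2 also rose in KO eTreg (0.24, edgeR adjusted p = 0.0144). Of 10 Atf6-related and other ER stress factors 3 (30%) rose, with the stress kinase Map3k5 (ASK1) at 0.49 and Creb3l2 at 0.47. In the cytosolic list 5 of 24 rose and 3 fell, 33.3% called against 27.5% of all genes. Fkbp5, an HSP90 cochaperone that glucocorticoids induce, rose by 0.75 and Bag3 by 0.53, while Dnajb4 fell by 0.52 and Hsf2 by 0.51; Hspbp1, an HSP70 exchange factor, fell in KO eTreg by 0.45.

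In the TRiC chaperonin and prefoldin 4 of 14 (28.6%) fell and none rose in KO cTreg, with Cct3 at -0.30 and Cct4 at -0.26. Of 14 other mitochondrial chaperones and proteases 1 fell, Trap1, the mitochondrial HSP90, at -0.25, which is 7.14% against the 12.6% of all genes called lower. The median log2 fold changes of these lists were -0.12 and -0.14, against 0.08 for the ER chaperones and 0.00 for all genes tested. No list was tested as a set.

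Plasma cells, whose secretory load makes ER chaperones abundant, were followed by Jchain, Mzb1, Sdc1 and Tnfrsf17. Of 12 markers listed, 5 were in the count table, these and the member Xbp1, which was left out of the sum. The listed immunoglobulin genes, such as Ighm and Igkc, were not among them and could not be read. Their sum lay between 0.216 and 0.371 CPM in the cTreg libraries and between 0.453 and 1.47 in eTreg, with Mzb1 at 0 in all KO eTreg and Tnfrsf17 at 0 in all WT libraries. Of 7 B cell markers, Cd22 left out, the sum was 11.6 to 12.8 CPM in WT cTreg, 7.71 to 9.75 in KO cTreg, 15.5 to 15.9 in WT eTreg and 9.61 to 11.9 in KO eTreg, mostly Cd79b. Cd22, the 8th gene of that list, went the other way between WT and KO: it was 0.384 to 1.73 CPM in WT cTreg, 16.2 to 30.8 in KO cTreg, 11.7 to 23.7 in WT eTreg and 39.2 to 55.3 in KO eTreg, with log2 fold changes of 4.55 and 1.42. The sum of 12 myeloid markers was 23.5 to 27.1 CPM in WT cTreg, 24.8 to 35.5 in KO cTreg, 20.5 to 22.6 in WT eTreg and 18.8 to 23.7 in KO eTreg, and that of 6 CD8 T and NK cell markers was 13.8 to 17.1, 22.7 to 27.2, 7.45 to 10.8 and 7.62 to 21.7. The part of such cells in the results was not tested.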

How the data were processed

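The deposited table held raw counts per gene symbol for 12 libraries. Per the labels' protocols, total RNA was depleted of ribosomal RNA (KAPA HyperPrep with RiboErase), and the submitters' processing notes name HISAT2 2.2.1, Cell Ranger and mm10; which tool counted the reads, and whether by strand, is not given in the sources used here. The authors' counts were filtered (filterByExpr), scaled (TMM) and fitted with edgeR 4.0.16's quasi-likelihood test over all 12 libraries as 4 groups, two-sided, with Benjamini-Hochberg adjustment over 12461 genes; limma 3.58.1 and DESeq2 1.42.0 were alternatives (R 4.3.3). The code was tested on simulated data. CPM are TMM-normalised, and low counts with a wide spread between pools leave Hspa1a and Hspa1b imprecise. The table holds 27 symbols changed into dates by a spreadsheet, none a member.

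The members and lists were chosen with earlier results of these data known. Values in each library are given for members called in a KO comparison or at least 1 log2 unit apart between subsets, and up to 2 called genes per direction are named of each further list (mean log2 CPM of at least 3). Whether replicate numbers pair libraries was checked from deviations from group means, correlated between libraries of the same number: 0.257, 0.341 and 0.166 for KO and WT eTreg, -0.105, 0.00473 and 0.0622 for KO and WT cTreg. No pair of libraries agreed within sampling noise (chi-square per degree of freedom 3.62 to 9.94). Alternatives were other scalings, filters and tests, a replicate block, only the 6 libraries compared, a minimum fold change of 1.5, and each library left out.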

Additional observations from a re-analysis of the deposited data

How the results depend on the processing

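Depth and 3 pools a group limit the smallest differences. Counts of members called were 11 in cTreg (KO against WT), 2 in eTreg, 23 and 27 between subsets (WT, KO) and 0 in the interaction. A minimum fold change of 1.5 left 0, 0, 7, 5 and 0: most differences are smaller than that, by construction. In eTreg, scaling without Rn45s gave 1. That scaling also moved the split of all genes in KO eTreg from 405 higher and 424 lower to 301 and 546. The 6 libraries of the comparison alone gave 0, with 361 and 410 of all genes called. The replicate block in those 6 libraries gave 4, with Ern1 and Hsp90ab1 (edgeR adjusted p = 0.0190) added. Calls over all genes rose there too, to 921 higher and 791 lower. In cTreg that block gave 8, with 1370 higher and 1180 lower over all genes, down from 1847 and 1574. Leaving out 1 library gave 0 to 2 members in eTreg, 8 to 12 in cTreg, 22 to 23 and 22 to 28 between subsets, and 0 to 1 in the interaction. Same-numbered eTreg libraries deviated together, a hint from the data that the numbers pair them; with the replicate block over 12 libraries 3 members were called in eTreg (Ern1 added), 11 in cTreg, 23 and 26 between subsets and 0 in the interaction. No called member changed sign in any setting; the cause of the changed counts was not tested.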
